A study of Homo sapiens with 36 samples.

Results

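The tumour necrosis factor (TNF) superfamily is a set of ligands and receptors, and 10 of its genes were followed in A549 cells exposed to IL-1β. The 10 genes were found by matching their symbols to the Ensembl identifiers of the count tables, and they are 10 of 63677 genes listed there. They comprise 2 ligands (TNFSF10, also called TRAIL, and TNFSF15, also called TL1A), 4 receptors that bind TRAIL (the death receptors TNFRSF10A and TNFRSF10B, the decoy receptor TNFRSF10D and the soluble decoy TNFRSF11B, also called osteoprotegerin), the death receptor FAS, the 2 TNF receptors TNFRSF1A and TNFRSF1B, and CD40. Of the 10 genes, 6 had enough reads to be tested. No member passed an adjusted p of 0.05 together with a 2-fold change at any time point, and the increases that passed the adjusted p alone were TNFRSF10A at day 21 of IL-1β (1.45-fold) and FAS at day 15 (1.82-fold). Adjusted p-values are from the quasi-likelihood test in edgeR and were corrected by Benjamini-Hochberg over all 19180 tested genes.

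Ligands of this family are trimers that cluster their receptors on the cell surface. Receptors with a cytoplasmic death domain, such as TNFRSF1A, TNFRSF10A, TNFRSF10B and FAS, recruit adaptors such as FADD or TRADD and from there either caspases that start apoptosis or the TRAF and BIRC proteins that lead to NF-κB. Decoy receptors bind the ligand without a working death domain. IL-1β acts through its own receptor, which also activates NF-κB.

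A549 is an established human lung adenocarcinoma cell line, and a single line was used. IL-1β was given at 1 ng/ml and cells were collected after 6, 15 or 21 days, or were kept with it for 21 days and collected 6, 15 or 30 days after it was withdrawn, each time beside untreated control cells. With 3 replicates in each of the 12 groups there were 36 libraries, 18 from control cells and 18 from cells that had met IL-1β, with 9116032 to 23570026 reads on genes. Nothing in the labels says whether replicates were separate cultures, so the p-values measure the spread between these libraries only.

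The libraries differed in the share of reads on mitochondrial genes. It was 11.8% to 24.6% in 11 libraries, 6 control and 5 IL-1β, and 5.61% to 7.75% in the other 25. Of the 11, 8 were replicate 2 and 8 were collected after withdrawal. The 25 libraries of low mitochondrial share were therefore also fitted alone. In that fit the control groups at days 6 and 15 after withdrawal hold 1 library each, which is assumed to vary like the other groups. CPM is the count of a gene relative to all gene counts of its library, scaled between libraries by TMM. Over all 36 libraries the epithelial keratins KRT8 and KRT18 had medians of 2183 and 1096 CPM, and CDH1 had 187 CPM. Control and IL-1β medians were 3199 and 955 CPM for KRT8 and 1700 and 596 CPM for KRT18. For CDH1 they were 236 and 110 CPM. ABCA3, an alveolar type II transporter, had between 6.62 and 35.96 CPM. KRT19, EPCAM, SFTPB, SFTPC and NKX2-1, markers of the same lineages, were all under 1 CPM at the median of the 36 libraries. The haematopoietic marker CD3E had 0 reads in all 36 libraries, PTPRC had 0 in 22 of them and at most 3 in the others, and the endothelial marker CDH5 had a median of 0 CPM, while the haematopoietic marker CD14 had a median of 5.19 CPM.

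The sequence just upstream of a gene is where factors such as NF-κB and AP-1 can bind, and both are activated downstream of the IL-1β receptor. Windows of 250 bases before the start sites were read from RefSeq promoters on build GRCh38.p14 for 5 of the 10 genes (FAS, TNFRSF1A, TNFSF15, TNFSF10 and TNFRSF1B). They were searched on both strands for the NF-κB motif, GGG followed by any 2 bases and TTTCC (on the other strand GGAAA, any 2 bases and CCC), and for the AP-1 motif TGANTCA. No match of one overlapped a match of the other in the windows shown. The NF-κB motif was in 608 of 35116 such windows of all genes (1.73%) and in 0 of these 5 genes. The AP-1 motif was in 2308 windows (6.57%) and in 2 of the 5 genes, FAS and TNFSF15. The shares over all genes count windows, while a gene here counts if any of its windows matches, so these are unlike measures. Among the related genes described further on, the NF-κB motif was found for 1 of 11 ligand genes (LTB), 1 of 14 receptor genes (TNFRSF9) and 4 of 16 adaptor and effector genes (BIRC3, CYLD, TNFAIP3 and TRAF3). The AP-1 motif was found for 1 of 11 (TNFSF14), 3 of 14 (CD27, EDA2R and TNFRSF9) and 2 of 16 (CASP8 and CFLAR). The 3 members with a window that were also tested are shown first, followed by 3 related genes that both responded to IL-1β and hold the NF-κB motif. This choice cannot show whether motif and response go together. TRAF1 and CD70 also responded and are not among the genes found with the motif, while CYLD and TRAF3 hold it and did not pass both thresholds. All run 5′ to 3′ on the gene's own strand, and capitals mark the matches to either motif.

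FAS, chr10:88990548-88990797, plus strand: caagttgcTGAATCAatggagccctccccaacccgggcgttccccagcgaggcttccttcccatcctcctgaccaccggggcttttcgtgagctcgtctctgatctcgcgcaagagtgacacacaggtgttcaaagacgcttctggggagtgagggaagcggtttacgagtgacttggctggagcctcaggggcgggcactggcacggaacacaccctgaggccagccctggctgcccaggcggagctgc

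TNFRSF1A, chr12:6342077-6342326, minus strand: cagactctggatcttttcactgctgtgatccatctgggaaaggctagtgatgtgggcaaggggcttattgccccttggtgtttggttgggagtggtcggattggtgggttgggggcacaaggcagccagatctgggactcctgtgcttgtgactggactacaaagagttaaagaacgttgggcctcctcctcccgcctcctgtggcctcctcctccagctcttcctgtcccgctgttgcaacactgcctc

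TNFSF15, chr9:114792531-114792780, minus strand: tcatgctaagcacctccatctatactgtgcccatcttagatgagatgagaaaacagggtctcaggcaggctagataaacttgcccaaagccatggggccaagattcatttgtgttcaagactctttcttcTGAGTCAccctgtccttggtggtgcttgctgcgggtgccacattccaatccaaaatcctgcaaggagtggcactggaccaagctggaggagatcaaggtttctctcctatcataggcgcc

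TNFRSF9, chr1:7940840-7941089, minus strand: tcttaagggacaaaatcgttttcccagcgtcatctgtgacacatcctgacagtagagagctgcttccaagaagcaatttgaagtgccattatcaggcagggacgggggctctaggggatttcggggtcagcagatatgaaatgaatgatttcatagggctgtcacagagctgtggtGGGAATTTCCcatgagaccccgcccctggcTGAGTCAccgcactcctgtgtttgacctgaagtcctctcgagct

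TNFAIP3, chr6:137867009-137867258, plus strand: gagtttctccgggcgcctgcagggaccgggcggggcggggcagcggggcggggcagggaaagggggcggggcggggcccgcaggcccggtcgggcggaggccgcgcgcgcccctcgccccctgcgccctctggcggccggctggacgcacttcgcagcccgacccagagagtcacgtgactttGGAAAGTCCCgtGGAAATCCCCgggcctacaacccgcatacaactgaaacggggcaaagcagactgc

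BIRC3, chr11:102317234-102317483, plus strand: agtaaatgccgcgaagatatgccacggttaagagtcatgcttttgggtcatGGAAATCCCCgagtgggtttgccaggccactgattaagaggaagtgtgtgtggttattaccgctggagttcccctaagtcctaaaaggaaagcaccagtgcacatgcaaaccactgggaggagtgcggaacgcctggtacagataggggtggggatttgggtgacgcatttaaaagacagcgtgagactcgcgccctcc

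FAS has 3 windows, for 3 start sites, and the other genes shown have 1 each. The FAS window printed is the one with a match, and it has 1 AP-1 match and 14 CpG dinucleotides. The other FAS windows, which start at 88990664 and 88991181, hold no match to either motif and have 11 and 19 CpG. The TNFSF15 window has 1 AP-1 match and 2 CpG. The TNFRSF1A window has no match and 4 CpG, against a median of 11 CpG over all windows and quartiles of 3 and 23. TNFRSF9 holds an NF-κB and an AP-1 match, TNFAIP3 a pair of NF-κB matches and BIRC3 a single one. A match is a run of letters, and binding was not measured here.

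The members differed widely in level. Per kilobase of exon, TNFRSF1A was highest in the control libraries, with a median of 58.7 CPM per kb (range 21.4 to 71.1, n = 18), followed by TNFRSF10B with 22.4 (10.3 to 25.9). The ranges of this pair met only through libraries of high mitochondrial share, since in the 12 control libraries of low share TNFRSF1A was at 54.3 to 71.1 CPM per kb and TNFRSF10B at 22.1 to 25.9. TNFRSF10A, TNFRSF10D and FAS had medians of 7.68, 6.19 and 6.02 CPM per kb, and their ranges of 4.62 to 8.99, 3.51 to 7.21 and 5.01 to 8.74 overlapped. TNFSF15 had a median of 0.182 CPM per kb (0.0888 to 0.256). TNFRSF1B, TNFRSF11B, TNFSF10 and CD40 followed with medians of 0.0495, 0.0330, 0.0141 and 0.00737 CPM per kb. Their ranges all reached 0, so the order of these 4 genes is not set beyond their spread.

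TRAIL, osteoprotegerin, TNFRSF1B and CD40 were thus at the limit of what this depth can measure. TNFSF10 (ENSG00000121858, chromosome 3, 172223298 to 172241265 on GRCh37, minus strand) had 38 reads in all 36 libraries together, at most 4 in one library and 0 in 13. CD40 (ENSG00000101017, chromosome 20, 44746910 to 44758502, plus strand), a receptor best known from antigen-presenting cells, had 29 reads in all, at most 3 in a library and 0 in 16. TNFRSF1B (ENSG00000028137, chromosome 1, 12227048 to 12269285, plus strand), the TNF receptor without a death domain, had 120 reads, at most 9 in a library. TNFRSF11B (ENSG00000164761, chromosome 8, 119935796 to 119964124, minus strand) had 68 reads, at most 6 in a library. Control and IL-1β libraries held 17 and 21 of the TNFSF10 reads, 13 and 16 of those on CD40, 58 and 62 of those on TNFRSF1B, and 27 and 41 of those on TNFRSF11B. With 3 reads or fewer taken as the floor, CD40 was at the floor in all 36 libraries, TNFSF10 in 35, TNFRSF11B in 30 and TNFRSF1B in 21. A fall or a small rise in these 4 genes was not detectable at this depth, and a low level in the cells was not told apart from none. A large rise from the floor could be seen at this depth, as it was for the related ligand LTB described further on. No IL-1β library held more than 4 reads on TNFSF10, 3 on CD40, 9 on TNFRSF1B or 6 on TNFRSF11B.

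**Figure D1:**
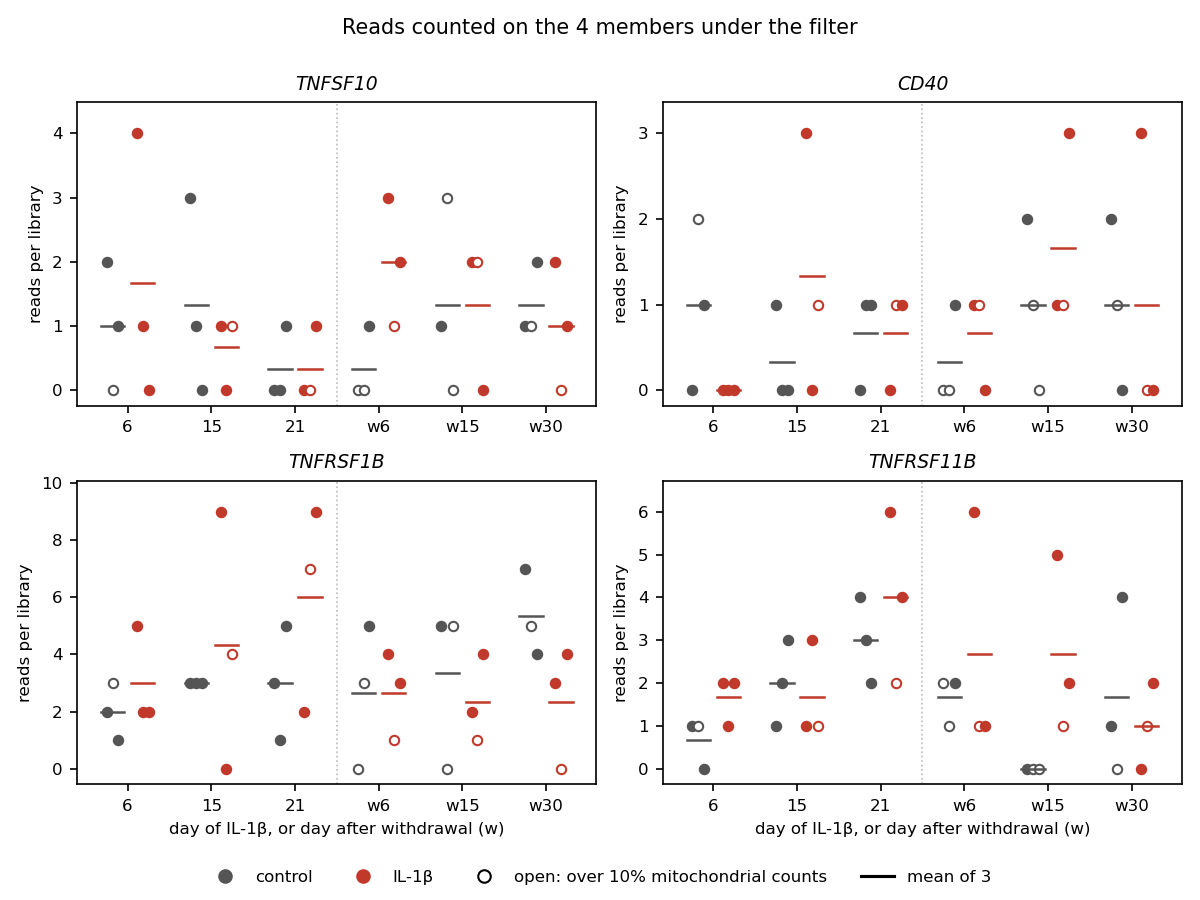
Reads counted on TNFSF10, CD40, TNFRSF1B and TNFRSF11B in each of the 36 libraries (vertical axis, raw reads, a different scale in each panel) by day of IL-1β or day after withdrawal (w); grey points are control, red points IL-1β, lines the mean of 3 and open points libraries with over 10% mitochondrial counts. No library has more than 9 reads on any of the 4 genes.

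TNFRSF10B and TNFRSF10A, the death receptors for TRAIL, had higher means in the IL-1β libraries at all 6 time points. TNFRSF10B (ENSG00000120889, chromosome 8, 22877646 to 22926544, minus strand) had 122, 91.5 and 112 CPM in the control libraries at day 6 and 183, 192 and 182 CPM with IL-1β. At day 15 it had 118, 118 and 116 CPM in control and 197, 197 and 95.8 CPM with IL-1β. At day 21 it had 123, 111 and 130 CPM in control and 213, 170 and 193 CPM with IL-1β. These are bulk libraries, in which a higher level in each cell and a larger share of expressing cells cannot be told apart. The groups were apart at days 6 and 21, and at day 15 replicate 3, a library of high mitochondrial share, lay under all controls while the other IL-1β libraries lay above. After withdrawal the control libraries had 94.6, 84.4 and 116 CPM at day 6, 119, 81.7 and 81.3 CPM at day 15 and 113, 51.5 and 111 CPM at day 30. The cells that had met IL-1β had 173, 101 and 158 CPM, 156, 101 and 156 CPM, and 139, 126 and 133 CPM at the same times. At days 6 and 15 after withdrawal the groups overlapped through replicate 2 of IL-1β, again of high mitochondrial share, and at day 30 they were apart.

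The log2 fold change of TNFRSF10B with IL-1β was 0.78, 0.48 and 0.66 at days 6, 15 and 21, and once it was withdrawn 0.55, 0.55 and 0.52, with a standard error of about 0.25. None passed the adjusted p of 0.05 over the 36 libraries, the lowest being 0.0905 at day 6 (quasi-likelihood test in edgeR). Among the 25 libraries of low mitochondrial share TNFRSF10B rose by 0.69, 0.75 and 0.76 at days 6, 15 and 21 (adjusted p = 1.12e-05, 2.55e-06 and 1.89e-06, quasi-likelihood test in edgeR), which is 1.62-, 1.68- and 1.69-fold. At days 6 and 15 after withdrawal the values were 0.52 and 0.39, each against 1 control library. The value of 0.28 at day 30 did not pass (adjusted p = 0.194, same test). The level itself moved with the mitochondrial share. In control libraries the median was 83.0 CPM (51.5 to 94.6) where the share was high and 117 CPM (111 to 130) where it was low, and in IL-1β libraries 101 CPM (95.8 to 170) and 182 CPM (133 to 213). With high mitochondrial share as a covariate over all 36 libraries, the values were 0.60, 0.60 and 0.85 at days 6, 15 and 21 and 0.60 at day 30 after withdrawal, and all 4 passed (adjusted p = 0.00521, 0.00389, 7.45e-05 and 0.0130, same test). At days 6 and 15 after withdrawal they were 0.34 and 0.36 and did not pass (adjusted p = 0.233 and 0.258, same test). This fit and that of the 25 libraries thus differed at day 30 after withdrawal (0.60 and 0.28). The covariate is a yes or no for a share over 10%. At day 30 it marks replicate 2 of both groups alike, with shares of 23.2% in control and 12.2% with IL-1β. Without replicate 2 the log2 fold change at that time was 0.27 and did not pass. RHOBTB2, with a median of 20.1 CPM, lies opposite 7.53% of the exon bases of TNFRSF10B, and no change in it passed the test.

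TNFRSF10A (ENSG00000104689, chromosome 8, 23047965 to 23082615, minus strand) was lower and less variable. At day 6 the control libraries had 22.8, 24.01 and 21.4 CPM and the IL-1β libraries 28.8, 30.0 and 34.4 CPM. At day 15 the values were 26.3, 23.1 and 23.3 CPM in control and 32.1, 34.2 and 24.4 CPM with IL-1β. At day 21 they were 24.6, 22.1 and 22.9 CPM in control and 35.4, 35.2 and 30.5 CPM with IL-1β. The groups did not overlap at days 6 and 21, and replicate 3 of IL-1β reached into the control range at day 15. After withdrawal the control values were 20.6, 23.0 and 21.3 CPM at day 6, 23.0, 21.8 and 18.7 CPM at day 15, and 18.8, 13.5 and 16.6 CPM at day 30. With earlier IL-1β they were 27.4, 29.3 and 23.1 CPM, 24.8, 22.8 and 23.0 CPM, and 20.4, 21.8 and 18.01 CPM. The groups were still apart at day 6 after withdrawal, though only just (23.1 against 23.0 CPM in the nearest libraries), and overlapped at days 15 and 30.

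TNFRSF10A rose at day 21, from a mean of 23.2 ± 1.26 CPM (SD, n = 3) to 33.7 ± 2.73 CPM (SD, n = 3), which is 0.54 ± 0.14 (SE) on the log2 scale at an adjusted p of 0.0118 (quasi-likelihood test in edgeR). It did not pass without replicate 1 (0.55, adjusted p = 0.350, same test), without replicate 2 (0.47, adjusted p = 0.197) or with no filter on low counts (0.55, adjusted p = 0.121). It did not pass at day 6 (0.45, adjusted p = 0.0590, same test) or day 15 (0.32, adjusted p = 0.202). After withdrawal the log2 fold changes were 0.30, 0.15 and 0.30, with adjusted p from 0.451 to 0.858 (quasi-likelihood test in edgeR). In the 25 libraries of low mitochondrial share it rose by 0.51, 0.45 and 0.52 at days 6, 15 and 21 (adjusted p = 0.00640, 0.00988 and 0.00306, same test). The values after withdrawal were 0.27, 0.06 and 0.12 there and did not pass. Of its exon bases, 16.7% lie opposite TNFRSF10A-AS1 or TNFRSF10A-DT on the other strand. The strand setting of the counting is not stated, so reads from these genes and from TNFRSF10A may not be told apart. TNFRSF10A-AS1 had a median of 1.74 CPM and rose by 0.89 at day 15 (adjusted p = 0.0427, same test).

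TNFRSF10D (ENSG00000173530, chromosome 8, 22993101 to 23021540, minus strand), the membrane decoy receptor for TRAIL, lies between TNFRSF10B and TNFRSF10A on the same strand. It had 25.5, 23.3 and 21.9 CPM in control and 28.0, 29.5 and 20.4 CPM with IL-1β at day 6. At day 15 it had 22.6, 20.7 and 12.4 CPM in control and 23.8, 24.1 and 23.2 CPM with IL-1β, and at day 21 18.4, 20.5 and 21.7 CPM in control and 22.6, 22.5 and 23.5 CPM with IL-1β. After withdrawal the control libraries lay between 19.3 and 23.97 CPM and those with earlier IL-1β between 23.5 and 33.7 CPM. The IL-1β libraries lay above the controls at all time points but day 6. The differences were small, with log2 fold changes of 0.14, 0.35 and 0.18 under IL-1β and, once it was withdrawn, 0.40, 0.31 and 0.27 (standard error 0.17), and no adjusted p was under 0.267 (quasi-likelihood test in edgeR). Its largest value, at day 6 after withdrawal, has a 95% interval from 0.06 to 0.74, which does not reach a 2-fold change.

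The balance of death and decoy receptors for TRAIL was also computed per kilobase in each library, as TNFRSF10A plus TNFRSF10B over TNFRSF10D. The decoys TNFRSF11B and TNFRSF10C, the latter among the related receptors described further on, were left out. In control libraries of high and low mitochondrial share TNFRSF10B had medians of 83.0 and 117 CPM, and TNFRSF10D 21.0 and 21.9 CPM. The ratio was not adjusted for that share. At day 6 it was 4.45, 4.01 and 4.78 in the control libraries and 5.85, 5.82 and 8.35 with IL-1β, and at day 21 6.36, 5.13 and 5.50 and 8.54, 7.20 and 7.37. The groups were apart at both times. At day 15 it was 5.10, 5.38 and 8.83 in control and 7.46, 7.48 and 4.19 with IL-1β, with means of 6.44 ± 2.08 and 6.37 ± 1.89 (SD, n = 3 each). The groups overlapped through replicate 3 of both. The IL-1β library of that replicate has a mitochondrial share of 15.3%, and the part of that share in its ratio was not tested. After withdrawal the means were 4.42, 4.17 and 3.83 in control and 4.71, 4.56 and 4.46 with earlier IL-1β at days 6, 15 and 30, and the groups overlapped at each time.

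**Figure D2:**
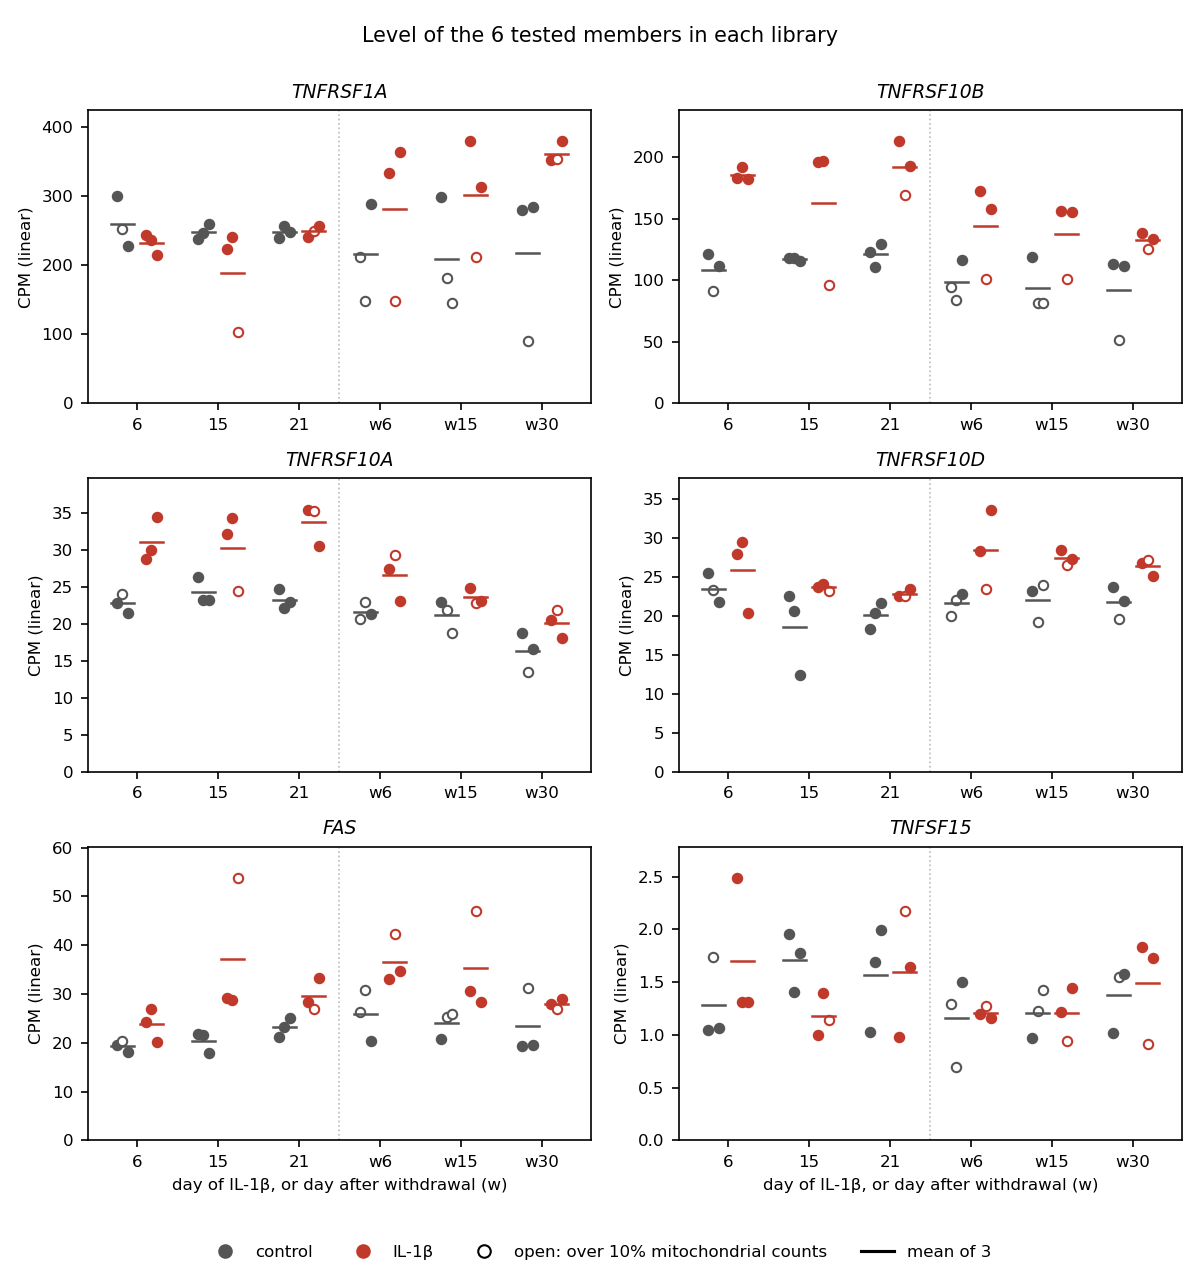
Level of the 6 tested members in each library, in CPM on a linear axis from 0 that differs between panels, by day of IL-1β or day after withdrawal (w); grey points are control, red points IL-1β, lines the mean of 3 and open points libraries with over 10% mitochondrial counts. TNFRSF10B and TNFRSF10A lie higher with IL-1β at days 6 and 21 without overlap, and open points often lie low for TNFRSF1A and TNFRSF10B and often high for FAS.

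FAS (ENSG00000026103, chromosome 10, 90750414 to 90775542, plus strand) is the receptor for FAS ligand. It had 19.6, 20.4 and 18.2 CPM in control and 24.4, 26.9 and 20.1 CPM with IL-1β at day 6. At day 15 it had 21.8, 21.6 and 17.9 CPM in control and 29.2, 28.8 and 53.7 CPM with IL-1β. At day 21 it had 21.3, 23.2 and 25.2 CPM in control and 28.4, 27.0 and 33.2 CPM with IL-1β. The groups overlapped at day 6 and were apart at days 15 and 21, and replicate 3 of IL-1β at day 15 stood far above the other libraries. After withdrawal FAS had 26.3, 30.8 and 20.3 CPM in control and 33.0, 42.2 and 34.8 CPM with earlier IL-1β at day 6. At day 15 it had 20.8, 25.3 and 25.9 CPM and 30.7, 46.9 and 28.3 CPM, and at day 30 19.4, 31.1 and 19.5 CPM and 28.0, 27.0 and 29.0 CPM. The groups were apart at days 6 and 15 after withdrawal, and at day 30 replicate 2 of the control exceeded all IL-1β libraries.

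FAS rose at day 15 by 0.86 ± 0.22 (SE) on the log2 scale at an adjusted p of 0.0131 (quasi-likelihood test in edgeR). This value rests on replicate 3, whose IL-1β library has a high mitochondrial share. Without replicate 3 it was 0.43 (adjusted p = 0.689, same test), without replicate 1 it was 1.08 (adjusted p = 0.165) and without replicate 2 it was 1.08 (adjusted p = 0.0127). The other time points gave 0.29 and 0.35 at days 6 and 21 and 0.51, 0.56 and 0.27 after withdrawal, and none passed. In the 25 libraries of low mitochondrial share FAS rose by 0.51 at day 15, 0.43 at day 21 and 0.56 at day 30 after withdrawal (adjusted p = 0.00735, 0.0220 and 0.0436, quasi-likelihood test in edgeR). The value of 0.35 at day 6 did not pass there (adjusted p = 0.108, same test). At days 6 and 15 after withdrawal the values were 0.76 and 0.51, each against 1 control library, the lowest of its group. In control cells the median level was 26.1 CPM (20.4 to 31.1) in the libraries of high mitochondrial share and 20.5 CPM (17.9 to 25.2) in the others, and these ranges overlapped. ACTA2 lies opposite 10.7% of the FAS exon bases, with a median of 14.2 CPM and no adjusted p under 0.05 at any time point (quasi-likelihood test in edgeR).

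TNFRSF1A (ENSG00000067182, chromosome 12, 6437923 to 6451280, minus strand), the main receptor for TNF on most cells, was the highest member, and no change passed the test over the 36 libraries. At day 6 it had 299, 252 and 228 CPM in control and 244, 237 and 215 CPM with IL-1β. At day 21 it had 239, 257 and 248 CPM in control and 241, 249 and 257 CPM with IL-1β. At day 15 the controls had 237, 246 and 260 CPM and the IL-1β libraries 223, 241 and 103 CPM. The groups overlapped at all 3 times, and the low library at day 15 is again replicate 3. After withdrawal the controls had 212, 149 and 289 CPM at day 6, 298, 181 and 146 CPM at day 15 and 280, 90.2 and 283 CPM at day 30. With earlier IL-1β the values were 332, 148 and 363 CPM, 379, 211 and 313 CPM, and 351, 353 and 379 CPM. The groups were apart at day 30 only.

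The log2 fold changes of TNFRSF1A were -0.16, -0.39 and 0.00 under IL-1β and, once it was withdrawn, 0.38, 0.53 and 0.73, with a standard error of about 0.34, and none passed (adjusted p from 0.575 to 1.00, quasi-likelihood test in edgeR). At day 21 the 95% interval ran from -0.70 to 0.71. The 25 libraries of low mitochondrial share narrowed it to -0.20 to 0.25, and gave 0.29, 0.22 and 0.38 after withdrawal (adjusted p = 0.443, 0.902 and 0.170, same test). With high mitochondrial share as a covariate over all 36 libraries, the value at day 30 after withdrawal was 0.87 and passed (adjusted p = 0.0311, same test). That yes or no covariate marks replicate 2 of both groups alike at this time, and the control library of replicate 2 was the lowest, at 90.2 CPM. Over all alternatives the value at day 30 ran from 0.37 to 0.96. In control cells the median level of TNFRSF1A was 165 CPM (90.2 to 252) in libraries of high mitochondrial share and 259 CPM (228 to 299) in the others. In IL-1β libraries it was 211 CPM (103 to 353) and 257 CPM (215 to 379). The ranges overlapped in both.

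TNFSF15 (ENSG00000181634, chromosome 9, 117546932 to 117568319, minus strand) was the only ligand of the 10 genes that could be tested. Over the 36 libraries it had 0.691 to 2.48 CPM with a median of 1.32 CPM, which is at most 50 reads in a library. At day 15 the control libraries had 1.95, 1.41 and 1.78 CPM and the IL-1β libraries 1.00, 1.39 and 1.14 CPM. The IL-1β libraries lay below the controls at that time, as in 13.9% of all genes tested, and the groups overlapped at the other 5 times. The log2 fold change was 0.42, -0.54 and -0.00 under IL-1β and, once it was withdrawn, 0.03, 0.03 and 0.13, with standard errors of 0.29 to 0.36, and its sign changed with the libraries used at 5 of the 6 time points. No adjusted p was under 0.438 (quasi-likelihood test in edgeR).

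**Figure D3:**
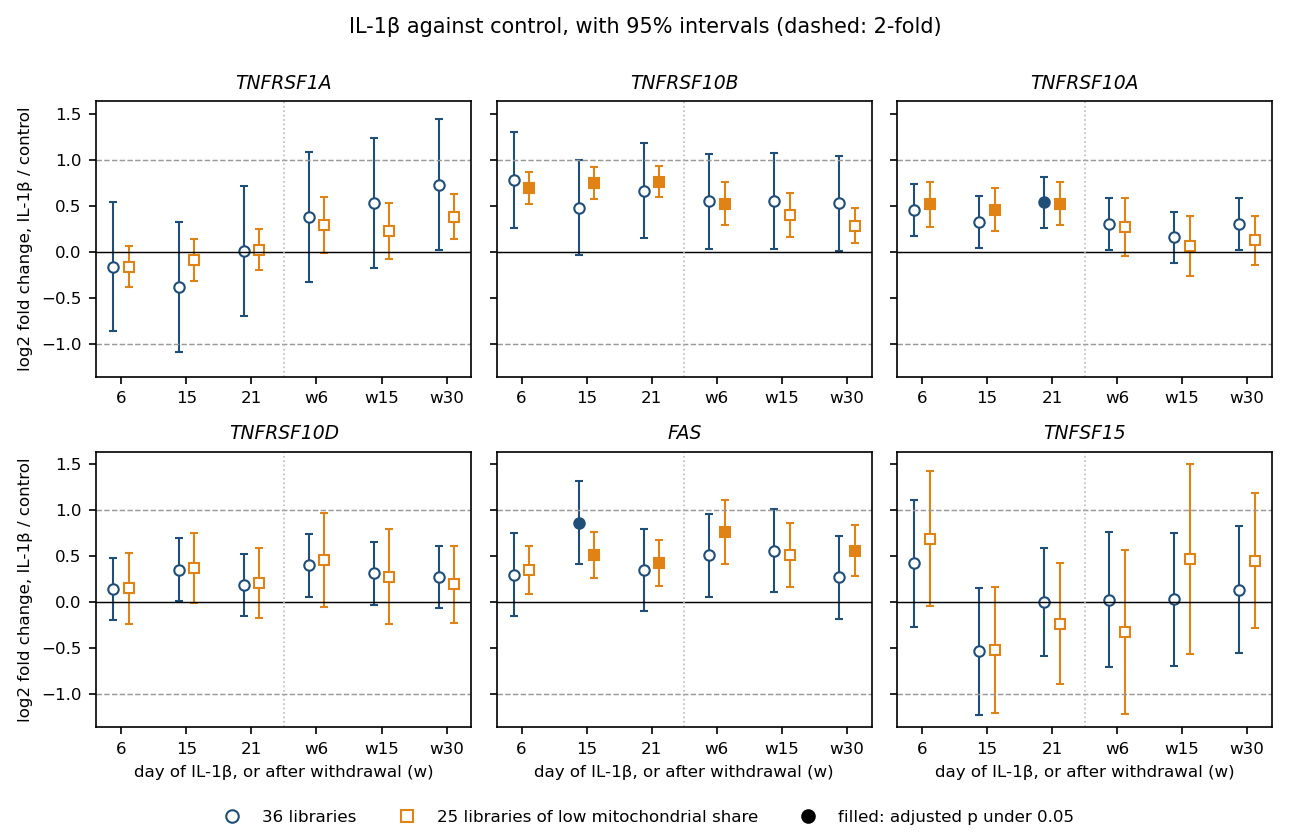
Log2 fold change of IL-1β over control for the 6 tested members (vertical axis) by day of IL-1β or after withdrawal (w); circles are the fit of 36 libraries, squares that of the 25 libraries of low mitochondrial share, bars 95% intervals, filled symbols an adjusted p under 0.05 and dashed lines a 2-fold change. No point lies beyond the dashed lines, and the intervals of TNFRSF1A and TNFRSF10B are far narrower in the 25 libraries.

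Counted together, 0 of the 6 tested members passed both thresholds at any of the 6 time points (days 6, 15 and 21 of exposure, then 6, 15 and 30 days after its end), where 2.77%, 4.24%, 4.26%, 1.80%, 0.954% and 0.897% of all tested genes did. By the adjusted p alone the members counted were 0, 1, 1, 0, 0 and 0, against 4.27%, 6.43%, 6.40%, 2.62%, 1.36% and 1.31% of all genes. An unadjusted p under 0.05 was reached by 2, 3, 2, 4, 2 and 3 of the 6 members (edgeR quasi-likelihood), and by 11.8%, 17.1%, 13.7%, 9.59%, 8.75% and 8.35% of all genes. DESeq2's Wald test gave 2 members with an adjusted p under 0.05 at day 6, TNFRSF10A and TNFRSF10B, and the same member as edgeR at days 15 and 21. All IL-1β libraries lay above all control libraries for 2, 2, 4, 3, 2 and 3 of the 6 members, and for 10.6%, 11.5%, 13.8%, 5.51%, 6.02% and 6.78% of all genes. Among the 25 libraries of low mitochondrial share, 2, 3, 3, 2, 0 and 1 members passed the adjusted p alone, against 7.84%, 10.6%, 11.4%, 3.08%, 0.143% and 1.22% of all genes. The median log2 fold change of the 6 members was 0.36, 0.34, 0.26, 0.39, 0.42 and 0.29, while the median over all tested genes stayed between -0.02 and 0.02.

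Whether the response to IL-1β itself differed between time points was tested as an interaction. Between day 21 and day 6 the response of the 6 members differed by -0.42 (TNFSF15) to 0.17 (TNFRSF1A) on the log2 scale. Between day 6 after withdrawal and day 21 it differed by -0.24 (TNFRSF10A) to 0.38 (TNFRSF1A), and between day 30 after withdrawal and day 21 by -0.24 (TNFRSF10A) to 0.72 (TNFRSF1A). No member passed the adjusted p in these 3 comparisons, in which 0.0104%, 0.141% and 0.730% of all genes did, or had an unadjusted p under 0.05, as 2.24%, 2.81% and 6.05% of all genes did (edgeR quasi-likelihood). The 95% intervals ran as wide as -1.38 to 1.72. In the 25 libraries of low mitochondrial share the response of TNFRSF10B at day 30 after withdrawal was 0.48 lower than at day 21 (95% interval -0.74 to -0.22), with an adjusted p of 0.0711 (quasi-likelihood test in edgeR). The same difference was -0.39 for TNFRSF10A (95% interval -0.75 to -0.04) and 0.36 for TNFRSF1A (0.03 to 0.70), and neither passed the adjusted p. Control cells of the last and the first collection were also compared, although culture time and collection cannot be told apart. No member passed the adjusted p there, as 0.0104% of all genes did. TNFRSF10A had an unadjusted p of 0.00179, as the single member under 0.05 against 1.94% of all genes, and its control level was -0.48 on the log2 scale at day 30 after withdrawal against day 6 (16.3 ± 2.64 and 22.7 ± 1.31 CPM, SD, n = 3).

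Over the 36 libraries, TNFRSF10A and TNFRSF10B varied together, with a Pearson r of log2 CPM of 0.76, and 0.83 in the 25 libraries of low mitochondrial share. The r of TNFRSF1A and FAS was -0.35 over 36 libraries and 0.40 over 25, and that of TNFRSF10B and FAS 0.00 and 0.70. The libraries share treatment, time and mitochondrial share, so these are descriptions. The genes most like TNFRSF10A over the 36 libraries were ETV5, an ETS transcription factor (r = 0.91), OTUB2, a deubiquitinase (r = 0.90), and WWC1 (r = 0.89). Those most like FAS were CUL4B, a ubiquitin ligase scaffold (r = 0.94), VIM, which encodes the intermediate filament vimentin (r = 0.90), and SAMD9 (r = 0.90). The median r over all tested genes was 0.00 for TNFRSF10A and -0.07 for FAS. Over the 25 libraries alone the r of these genes was 0.87 to 0.93.

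The rest of the family and its signalling genes were read from 3 lists with 59 genes, of which 38 were tested. They comprise 16 other ligands (7 tested), 21 other receptors (10 tested) and 22 adaptors and effectors (21 tested). Together 7, 8, 8, 4, 3 and 3 of the 38 genes passed both thresholds at the 6 time points in order, 1 of them lower at days 15 and 21 and the rest higher, beside the shares of all genes given for the same rule. The median log2 fold change over the 38 genes was 0.41, 0.37, 0.39, 0.30, 0.28 and 0.20.

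Among the adaptors and effectors, 4, 4, 3, 2, 1 and 2 genes were past both thresholds, all higher. TNFAIP3, which encodes the ubiquitin-editing NF-κB inhibitor A20, had 7.85, 6.09 and 6.79 CPM in control and 127, 132 and 84.9 CPM with IL-1β at day 6. It rose by 4.05, 3.15 and 3.21 during exposure and by 1.27 and 1.09 at days 6 and 30 after withdrawal (adjusted p = 1.18e-12, 9.68e-11, 4.73e-11, 0.000470 and 0.00503, quasi-likelihood test in edgeR), and at day 15 after withdrawal by 0.92, under 2-fold. TRAF1, an adaptor of TNF receptors, had 1.57, 1.57 and 1.89 CPM in control and 14.5, 13.4 and 12.7 CPM with IL-1β at day 6. TRAF1 rose by 3.00, 2.27, 2.45, 2.61, 2.01 and 2.03 and passed both thresholds at all 6 time points (adjusted p from 0.000262 to 0.0465, same test). At day 30 after withdrawal its IL-1β libraries had 7.47, 6.76 and 1.40 CPM and the controls 1.29, 1.03 and 1.38 CPM, so replicate 3 was near the control level. BIRC3, an inhibitor of apoptosis, rose by 2.13, 2.06 and 1.38 during exposure and had 0.64, 0.47 and 0.24 after withdrawal, which did not pass. BID, which links death receptors to mitochondria, rose by 1.39 at day 6 and BIRC2 by 1.06 at day 15, and both rose by less than 2-fold at the other times of exposure. The other 16 tested genes of this list, among them FADD, CASP8, RIPK1 and XIAP, did not pass both thresholds at any time point.

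Among the other receptors, TNFRSF9 (4-1BB), a costimulatory receptor of T cells, had 0.780, 0.702 and 1.36 CPM in control and 9.93, 10.1 and 9.94 CPM with IL-1β at day 6. It rose by 3.36, 3.15 and 2.95 during exposure and by 2.06 and 1.76 at days 6 and 15 after withdrawal (adjusted p = 3.01e-07, 2.80e-07, 5.65e-07, 0.000485 and 0.00678, quasi-likelihood test in edgeR). At day 30 the value was 0.86 and did not pass. TNFRSF25, a death-domain receptor that binds TNFSF15, rose by 1.10 at day 21 (adjusted p = 0.0254, same test), from 1.19 ± 0.420 to 2.56 ± 0.495 CPM (SD, n = 3 each). No other tested receptor of the list passed both thresholds.

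Among the other ligands, TNFSF14 (LIGHT) rose by 2.10, 2.75 and 2.45 during exposure (adjusted p = 0.0321, 0.00275 and 0.0116, quasi-likelihood test in edgeR) and had 0.88, 0.50 and 0.12 after withdrawal. CD70, the ligand of CD27, had 2.68, 1.81 and 2.03 CPM in control and 5.92, 5.69 and 7.63 CPM with IL-1β at day 21. It rose by 1.56 at day 21 and by 1.65, 1.59 and 1.97 at days 6, 15 and 30 after withdrawal (adjusted p = 0.00822, 0.0165, 0.0409 and 0.0110, same test), and its values of 0.86 and 0.96 at days 6 and 15 of exposure did not pass. LTB, which encodes lymphotoxin β, was at the floor in all control groups. With IL-1β it passed both thresholds at days 6 and 15 and was at least 5.11-fold and at least 2.88-fold higher, taking 3 reads per library as the floor, a bound that covers counting error only. EDA, the ligand of an ectodermal receptor, was the one gene that fell, by 1.45 at day 15 and by 1.27 at day 21 on the log2 scale (adjusted p = 0.00997 and 0.0248, same test).

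Leaving out the libraries of high mitochondrial share kept the calls of TNFAIP3, TRAF1 and TNFRSF9 at days 6, 15 and 21 and at day 6 after withdrawal. At day 15 after withdrawal, with 1 control library, none of the 3 passed, and at day 30 TNFAIP3 and TRAF1 did not pass, with log2 fold changes of 1.03 and 1.66 (adjusted p = 0.0842 and 0.293, quasi-likelihood test in edgeR). CD70 passed at day 30 in that fit (1.65, adjusted p = 0.0137, same test).

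**Figure D4:**
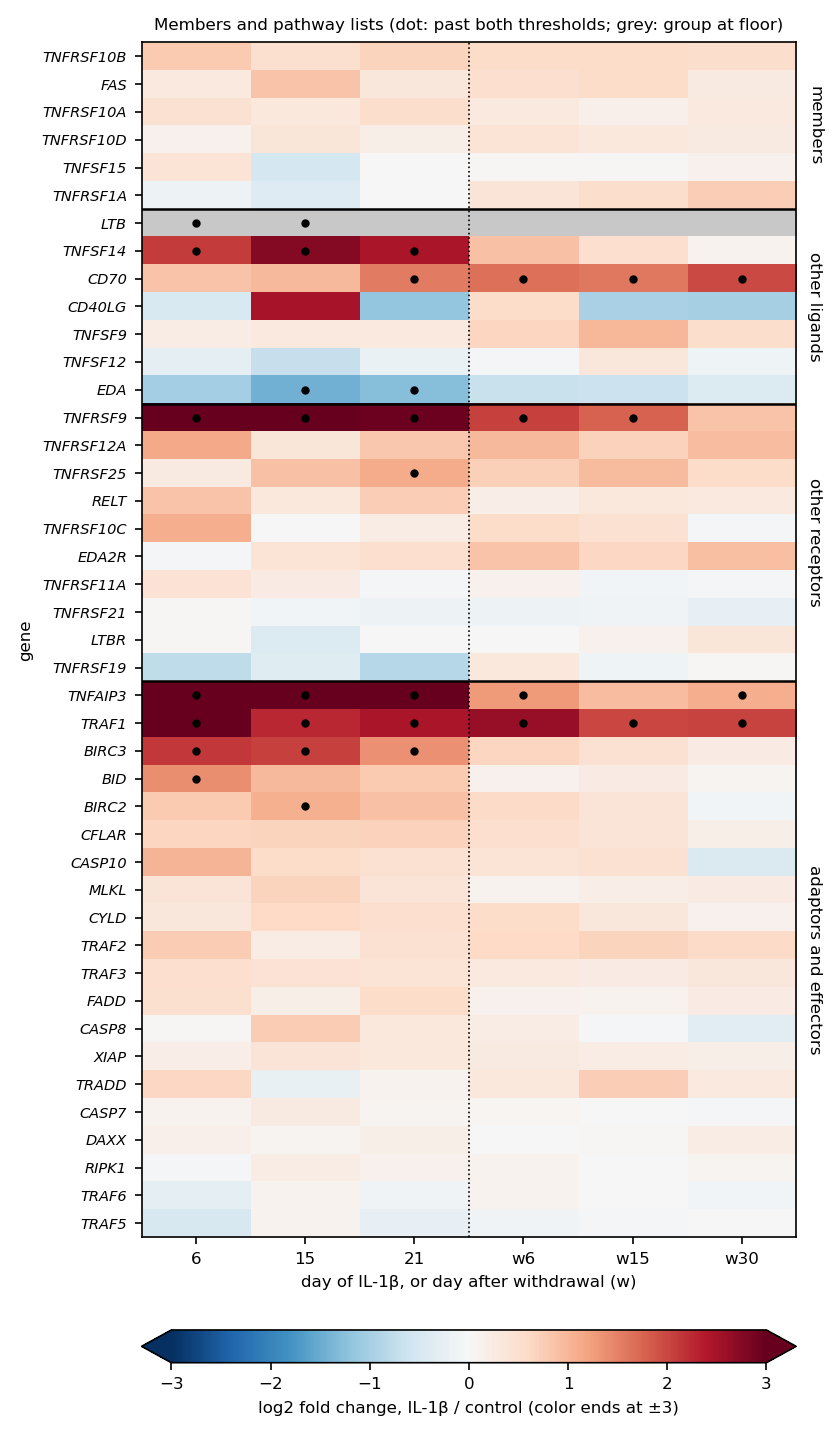
Log2 fold change of IL-1β over control (colour, scale ends at ±3) for the 6 tested members and the tested genes of the 3 lists, except a gene that is not reported here, in rows ordered within each block by their mean over days 6, 15 and 21, by day of IL-1β or after withdrawal (w); dots mark genes past both thresholds and grey a group at the floor of 3 reads, for which no fitted value is drawn. The member block holds no dot, and TNFAIP3, TRAF1, TNFRSF9 and CD70 carry dots after withdrawal.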

How the data were processed

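RNA of 36 A549 libraries in 12 groups was measured by single-end RNA sequencing. The authors aligned reads to GRCh37 with TopHat2 2.0.14 and Bowtie2 2.2.5 and counted them per Ensembl gene with HTSeq 0.6.1 (versions from the submitters' processing notes), and the deposited values are these raw counts. The annotation release and the strand setting are not given in the sources used here. Reads on no gene (8.48% to 18.6% per table) and reads ambiguous between genes (2.62% to 4.18%) were left out.

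Genes were named from GENCODE v44lift37 (55665 of 63677 identifiers matched; 1 endothelial marker, PECAM1, was not). In R 4.3.3, edgeR 4.0.16 kept 19180 genes by filterByExpr, scaled counts by TMM and fitted its quasi-likelihood model to all groups (24 residual degrees of freedom), as the authors' own thresholds (adjusted p under 0.05, fold change over 2) were applied to Benjamini-Hochberg p-values over all tested genes. DESeq2 1.42.0 served as an alternative. Log2 CPM used a prior count of 2. The model was checked on simulated counts. Floors of 3 reads cover counting error only. Members, lists, comparisons and alternatives were chosen with earlier results of these data known. The text names all members, list genes past both thresholds at any time point, and the 3 genes most correlated with each of the 2 members that ranked first by calls and adjusted p. A gene of the lists enters their counts but is not reported here.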

Additional observations from a re-analysis of the deposited data

Results flagged for a closer look

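Among the list genes past both thresholds at any time point, 4 had a response to IL-1β that differed between time points, and no member did. The difference itself was tested (edgeR quasi-likelihood, Benjamini-Hochberg over all tested genes). These list genes were picked by their response and the members were not, so the 2 sets are unlike. The response of TNFAIP3 was lower at day 6 after withdrawal than at day 21 of exposure, with a log2 difference of -1.93 ± 0.30 (SE, adjusted p = 0.000983), and at day 30 after withdrawal with one of -2.11 (standard error 0.30, adjusted p = 0.000135). Between day 30 after withdrawal and day 21 the response of TNFRSF9 differed by -2.09 (standard error 0.49, adjusted p = 0.0351), that of BIRC2 by -0.96 (standard error 0.22, adjusted p = 0.0239) and that of BID by -0.71 (standard error 0.16, adjusted p = 0.0270). In the 25 libraries of low mitochondrial share the difference of TNFAIP3 at day 6 after withdrawal was -1.89 and did not pass (adjusted p = 0.0707). The same differences at day 30 were, in these libraries, -2.27 for TNFAIP3, -0.83 for BIRC2 and -0.88 for BID, which passed the adjusted p, and -1.87 for TNFRSF9, which did not (adjusted p = 0.0713). With 3 libraries in each group, outlying single libraries were not tested.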

How the results depend on the processing

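No member passed both thresholds under any alternative, except at day 15, where 1 did (FAS) without replicate 2 (range 0 to 1 with each replicate left out), and by the adjusted p alone, which gives 1 member at day 15 and 1 at day 21. Members with an adjusted p under 0.05 numbered 1 at day 6 with DESeq2's size factors (TNFRSF10A), 2 with its Wald test and 2 with the replicate block (TNFRSF10A and TNFRSF10B in both). In the 25 libraries of low mitochondrial share they were 2, 3, 3 and 2 at days 6, 15 and 21 and at day 6 after withdrawal, and 1 at day 30. With high share (yes or no) as a covariate they numbered 2, 2, 2, 1, 1 and 2 at the 6 times in order. These were TNFRSF10A and TNFRSF10B at days 6 and 21, and FAS and TNFRSF10B at day 15. After withdrawal they were FAS at days 6 and 15, and TNFRSF1A and TNFRSF10B at day 30. Fitting each time point alone, with 4 residual degrees of freedom, gave 1, 0 and 2 at days 6, 15 and 21, and no filter on low counts gave 0 at day 21. With each replicate left out the number was 0 to 1 at day 15 and 0 to 1 at day 21. It fell to 0 at day 15 without replicate 1 or 3, and at day 21 without replicate 1 or 2.

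The genes of the 3 lists past both thresholds numbered 3 to 7, 4 to 8, 2 to 6, 0 to 3, 0 to 2 and 0 to 3 with each replicate left out, the lowest in each case without replicate 1, and also without replicate 2 at days 15 and 30 after withdrawal. Separate fits gave 5 at day 15 and 0, 0 and 0 after withdrawal, and leaving out the libraries of high mitochondrial share gave 0 and 1 at days 15 and 30 after withdrawal. The adjusted p alone gave 13 at day 21, 8 at day 6 after withdrawal and 5 at day 15 after withdrawal.

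Signs turned for TNFSF15 and, once, for TNFRSF1A, and the cause was not tested. TNFSF15 at day 21 was 0.013 with DESeq2's size factors, 0.0089 with no filter, 0.0014 with the Wald test, 0.0016 with the replicate block and -0.21 to 0.19 with each replicate left out. Without the libraries of high mitochondrial share it was -0.33 at day 6 after withdrawal. With each replicate left out it ran from -0.056 to 0.83 at day 6, and from -0.29 to 0.36, -0.15 to 0.16 and -0.24 to 0.44 at days 6, 15 and 30 after withdrawal. TNFRSF1A at day 21 ran from -0.019 to 0.034. The replicate block changed no other count by over 1.5 times. Replicate numbers do not pair the libraries by the labels, and 4 of 18 same-numbered pairs correlated at 0.1 or less in their deviations from group means (mean 0.28). Levels of the 4 untested members are limited by depth.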
